A study of Mus musculus with 2 samples.

Results

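The genes described here are the cytosolic heat shock chaperones, the mitochondrial chaperones, the chaperones of the endoplasmic reticulum and the factors that control them, as measured in blood stem and progenitor cells of mice. They were chosen by name: every probe set that the platform annotation assigned to 1 of 41 listed genes was taken. Of these, 39 had a probe set of their own, out of 18193 genes on the array, and they held 101 probe sets. Hsp90ab1 and Hsf1 had none in the annotation used and are not analysed here. The list was drawn up with the difference between both arrays in view, so the values are a description and no test was run on them.

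Total RNA came from KLS cells of mouse bone marrow, which were sorted as negative for lineage markers and positive for c-kit and Sca. The first group was wild type. The second was TIF1γ Δ/Δ, from mice in which TIF1γ (Trim33, a transcriptional regulator) was conditionally inactivated. The promoter of the recombinase, the age of the mice and whether animals were pooled are unknown from the labels. Each group was 1 Affymetrix array made from 25 ng of RNA, so no difference below has a replicate check, an SD or a p-value.

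Chaperones bind unfolded proteins and release them in cycles driven by ATP. In the cytosol, HSP70 proteins take their substrates from J-domain proteins, HSP110 proteins and BAG proteins reset HSP70 by exchanging its nucleotide, and HSP90 acts later on clients such as kinases. Heat shock factors induce the inducible members when unfolded protein builds up. The endoplasmic reticulum has its own HSP70, HSP90 and HSP110, with disulfide isomerases and sugar-binding chaperones, and its stress is sensed by the proteins of Ern1 (IRE1), Atf6 and PERK. The output is called the unfolded protein response, and protein folding capacity is known to matter for the upkeep of blood stem cells.

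All values are MAS5 intensities, a linear brightness in arbitrary units that the authors had scaled array by array. The floor for a measured probe set was the median of its array, 14.4 for wild type and 11.7 for TIF1γ Δ/Δ. The difference is the log2 intensity on TIF1γ Δ/Δ minus that on wild type, less the median difference of all probe sets measured on both arrays (-0.024). A gene is represented by its brightest probe set unless another is named, and intensities of different genes are not compared.

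The labels were checked on a few genes. Trim33 had an intensity of 379 in wild type and 172 in TIF1γ Δ/Δ cells (log2 -1.12), and both its probe sets measured on both arrays were below 0. Kit gave 384 and 495, and Ly6a (Sca) had no probe set of its own. Of the 8 measured stem and progenitor markers, none was 2-fold apart, with Cd34 at 1398 and 2326 and Hlf at 725 and 710. Markers of mature neutrophils and macrophages were far lower on TIF1γ Δ/Δ: 14 of 16 measured markers were at least 2-fold lower. The brightest in wild type were S100a8 (9568 to 53.6) and S100a9 (8147 to 9.92), and the list summed to 44540 and 6375. Erythroid markers summed to 6766 and 3522, with 4 of 8 measured at least 2-fold lower (Slc4a1, Alas2, Klf1 and Car1). The brightest were Car2 (2879 and 2016), which was under 2-fold, and Car1 (2154 and 673). B and T cell markers summed to 399 and 170, with 2 of 5 at least 2-fold lower (Ms4a1 and Cd3d). The brightest were Cd79b (182 and 128), which was under 2-fold, and Ms4a1 (127 and 9.02). Plasma cell markers, from cells rich in endoplasmic reticulum, summed to 7346 and 7177, and the brightest were Jchain (4346 and 4440) and Xbp1 (2042 and 2118). That sum is carried by these 2, and the median of the 8 measured was -0.50: 5 were below 0, from Ell2 (log2 -0.47) to Slamf7 (log2 -1.35), which alone was at least 2-fold lower. No marker was listed at exactly 0, and their part in the result was not tested. In sorted bulk cells, fewer cells of a type and less RNA per cell cannot be told apart. The ratio of 3' to 5' signal was 7.86 and 7.38 for Gapdh and 5.14 and 5.54 for actin. Signal of these controls was thus several-fold stronger at the 3' end on both arrays. How far this bears on probe sets of a gene that disagree was not tested.

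Most chaperone genes were modestly higher in TIF1γ Δ/Δ cells. Of the 37 genes measured on both arrays, 29 (78.4%) had a difference above 0, where 53.1% of all such genes did. Their median was 0.31, against 0.044 for all 10365 genes measured on both. Size set a limit to this: 22 of the 37 lay within 0.5 of 0. Between probe sets of the same gene, not between mice, the SD of the difference was 0.44 over 4534 genes. That is more than the median of 0.31. At least 2-fold higher were 4 of the 39 measured genes (10.3%), namely Hspa1b, Hsph1, Bag3 and Hyou1, where 2.53% of all 11724 measured genes were higher. At least 2-fold lower was 1, Ddit3, where 6.01% of all genes were lower. Either way this made 5 of 39, where 8.55% of all genes were 2-fold apart. Because the genes were picked with these differences known, nothing is read from the shares.

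**Figure D1:**
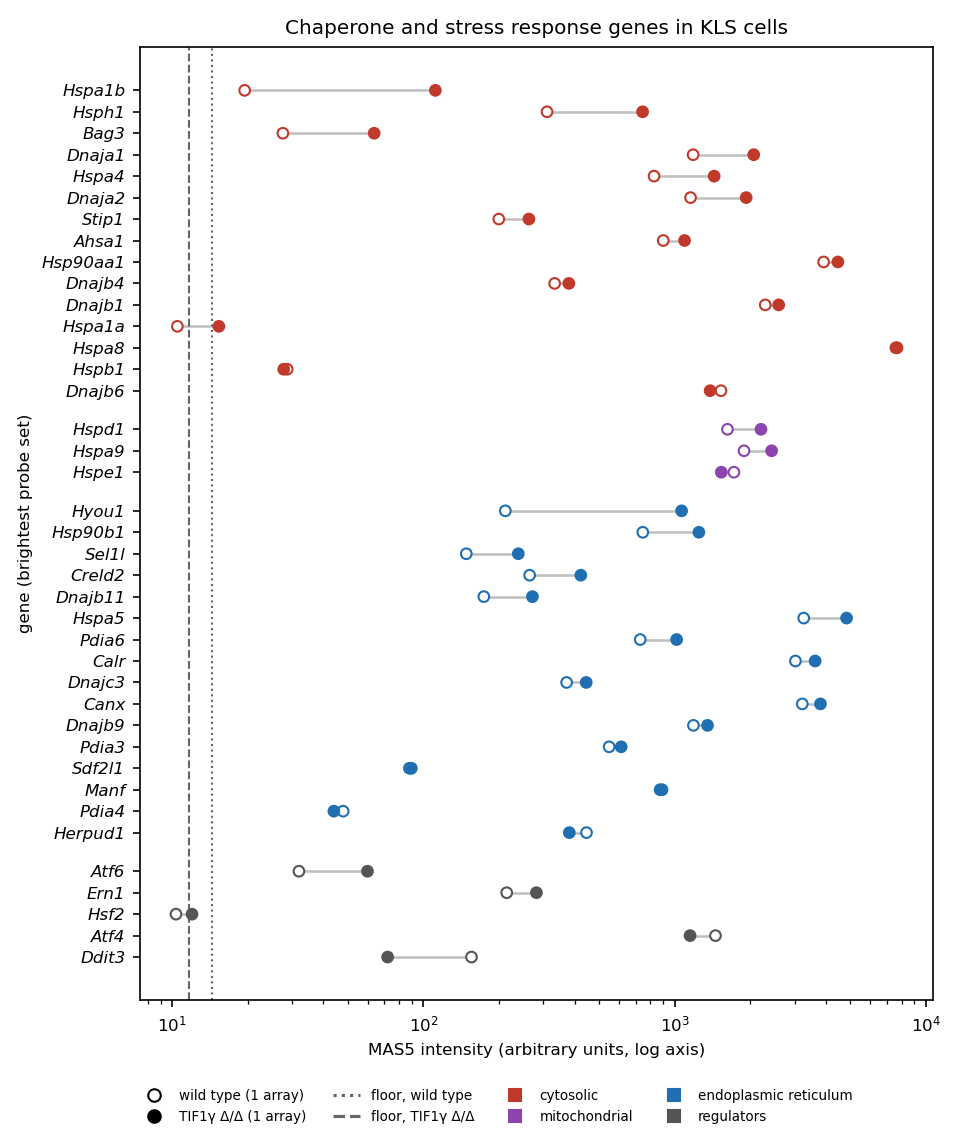
MAS5 intensity (log axis) of 39 genes on the wild type array (open circles) and the TIF1γ Δ/Δ array (filled circles), 1 array each, grouped by compartment, with the floor of each array as a vertical line. The 4 longest lines to the right of their compartments are Hspa1b (19.4 to 112), Hsph1 (311 to 745), Bag3 (27.6 to 63.7) and Hyou1 (212 to 1066), and Ddit3 (155 to 72.1) runs the other way.

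In the cytosol, the genes furthest apart were the inducible HSP70 and partners that exchange its nucleotide. Hspa1b, the stress-inducible HSP70, gave 19.4 in wild type and 112 in TIF1γ Δ/Δ cells (log2 2.54, 5.84-fold). Its other probe sets lay under the floor in wild type only, at 7.95 and 16.5 for 1427126_at and at 6.47 and 31.6 for 1427127_x_at. All 3 were thus brighter on TIF1γ Δ/Δ, but all were dim, and the mean over them gave a log2 difference of 1.31. Its neighbour and near copy Hspa1a gave 10.5 and 15.4, below the wild type floor, which allows only "at least 1.08-fold higher". Probe signal from such near-identical genes cannot be separated with certainty, so both values are uncertain.

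Both genes carry the same sequence just before their start, which is shown because it holds the heat shock element, the site bound by heat shock factors. In the RefSeq promoter windows of GRCm38.p6, 247 of the 250 bases before the start were identical between the 2 genes. The stretches below run 5′ to 3′ on the minus strand, from 150 bases before the start to the base before it, with the match in capitals, at chr17:34959239-34959388 for Hspa1b and chr17:34972157-34972306 for Hspa1a.
Hspa1b: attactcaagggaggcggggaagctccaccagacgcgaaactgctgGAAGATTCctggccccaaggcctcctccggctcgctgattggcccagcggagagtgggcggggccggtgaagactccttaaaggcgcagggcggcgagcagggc
Hspa1a: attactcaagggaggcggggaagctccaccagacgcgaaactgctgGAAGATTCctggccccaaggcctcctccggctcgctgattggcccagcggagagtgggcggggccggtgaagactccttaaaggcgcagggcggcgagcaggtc
The match starts at -104 in both. The same element thus stood before both genes. Both were dim in wild type and their signals cannot be separated with certainty, so no contrast between them is drawn.

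Hsph1 (HSP105), a cytosolic HSP110, gave 311 and 745 (log2 1.29, 2.44-fold). Its other probe set gave 29.1 and 60.9 (log2 1.09), so both were 2-fold higher. Hspa4, the other cytosolic HSP110 here, gave 828 and 1436 (log2 0.82), but its probe sets were split. Of the others, the set 1416147_at gave 19.8 and 40.4 (log2 1.05), while 637 and 650 (log2 0.054) came from 1435194_at and 41.1 and 35.8 (log2 -0.18) from 1440575_at. Bag3, a nucleotide exchange factor that also guides clients to autophagy, gave 27.6 and 63.7 (log2 1.23) on its only probe set, and 0.99 once 10 was added to every intensity.

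The constitutive HSP70 did not follow. Hspa8 gave 7593 and 7671 (log2 0.039), and its probe sets 1420623_x_at and 1420622_a_at gave -0.12 and -0.26. A further probe set, 1431182_at, gave 164 and 43.6 (log2 -1.89), the most negative of all 79 probe sets of these genes measured on both arrays. Hsp90aa1, the inducible cytosolic HSP90, gave 3914 and 4462 (log2 0.21), with all 3 probe sets measured on both arrays above 0 and at most 0.37. The small heat shock protein Hspb1, which holds unfolded protein without ATP, gave 28.7 and 27.8 (log2 -0.022). This dim signal turned to 0.21 with quantile and 0.14 with loess scaling.

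The J-domain proteins, which deliver substrates to HSP70, ranged from -0.12 to 0.83. Dnaja1 gave 1184 and 2063 (log2 0.83), and its other probe sets were also higher, at 1.06 for 1460179_at and 0.13 for 1459835_s_at. Dnaja2 gave 1157 and 1926 (log2 0.76) while its other probe sets spread from -0.54 to 1.22. Dnajb1, the partner that is induced along with Hspa1b in a heat shock response, gave 2293 and 2594 (log2 0.20), and its second probe set gave 248 and 156 (log2 -0.64), which took the mean of both to -0.22. Dnajb4 gave 333 and 379 (log2 0.21), with a dimmer probe set at 26.6 and 56.2 (log2 1.11). Dnajb6 gave 1529 and 1384 (log2 -0.12), while its other measured probe sets were above 0. The J-domain genes therefore had no common size, and the split lay as much within genes as between them. Among the co-chaperones of HSP90, Stip1, which bridges HSP70 and HSP90, gave 200 and 263 (log2 0.42), and Ahsa1, an activator of the HSP90 ATPase, gave 901 and 1095 (log2 0.31, 2 of 2 probe sets). Over the cytosolic genes, 12 of the 14 measured on both arrays were above 0, at a median of 0.36, and 3 were at least 2-fold higher.

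Heat shock elements were searched in the promoter windows, 250 bases before to 50 bases after each RefSeq start. The forms GAANNTTC and TTCNNGAA were used, each of which reads the same on both strands, and matches of the 2 forms can overlap. Of 32851 windows, 15.1% held at least 1 form (7.86% and 8.52%). Of the 41 genes, 33 had a window, and 10 of these held a match: Bag3, Dnaja1, Dnajb4, Dnajb6, Hspa1a, Hspa1b, Hspb1, Hspd1, Hspe1 and Hsph1. No window was matched for Atf6, Hsf1, Hsp90aa1, Hsp90ab1, Hspa8, Hspa9, Hyou1 and Manf. The 3 cytosolic genes at least 2-fold higher were all among the 10, while Hspb1, with 2 matches, was at -0.022. The cytosolic genes with a match had a median of 0.83 over 7 measured on both arrays and ranged from -0.12 to 2.54. With Hspa1a, which has only a bound, the median over 8 was 0.52. The 5 with a window and no match (Ahsa1, Dnaja2, Dnajb1, Hspa4 and Stip1) had a median of 0.42 and ranged from 0.20 to 0.82. Both groups are small, and no test was made between them. Over the whole array, 26 of 1345 measured genes with a match (1.93%) were at least 2-fold higher, against 253 of 9528 measured genes with a window (2.66%). For Hsph1 the stretch before the start is shown, on the minus strand at chr5:149636337-149636436, with the match at -33 in capitals.
Hsph1: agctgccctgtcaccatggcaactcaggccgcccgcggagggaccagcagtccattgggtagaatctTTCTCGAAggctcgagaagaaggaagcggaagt

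The mitochondrial chaperones went in different directions. Hspa9, the HSP70 of the matrix, gave 1888 and 2431 (log2 0.39). Its probe sets 1418504_at (log2 0.95) and 1447728_x_at (log2 0.63) were also higher, and 1453811_at, near the floor at 19.9 and 14.0, was lower (log2 -0.49). Hspd1 (HSP60), the barrel of the mitochondrial chaperonin, gave 1622 and 2205 (log2 0.47) on its only probe set. Hspe1 (HSP10), the lid of that barrel, gave 1721 and 1533 (log2 -0.14), and its second probe set gave 164 and 87.8 (log2 -0.88). Barrel and lid, which work as 1 machine, thus lay on opposite sides of 0.

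Hspd1 and Hspe1 are read in opposite directions from 1 stretch of DNA, which is shown because their values lay on opposite sides of 0. That contrast is uncertain, because each group is 1 array and Hspd1 has 1 probe set. The SD between probe sets of a gene was 0.44. Their RefSeq starts lie 216 bases apart, at position 55087932 and 55088148 of chromosome 1, and their promoter windows overlap by 285 bases. The stretch below lies between both starts, at chr1:55088023-55088102 on the plus strand, the strand of Hspe1. Capitals mark 3 overlapping heat shock matches, TTCTAGAA, GAACCTTC and TTCCGGAA.
Hspe1: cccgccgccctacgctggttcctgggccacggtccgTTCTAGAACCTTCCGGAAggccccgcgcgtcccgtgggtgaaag

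In the endoplasmic reticulum, the HSP70, HSP90 and HSP110 genes were all above 0 on their brightest probe sets, and 1 of them far more than the rest. Hyou1, the HSP110 that exchanges the nucleotide of BiP, gave 212 and 1066 (log2 2.35, 5.11-fold). This rests on 1423291_s_at alone. Its other probe sets were dim, at 11.97 and 10.1 for 1451913_a_at, under the floor on both arrays, and at 3.77 and 12.3 for 1423290_at, under it on the wild type. The mean over all 3 gave 0.62, and no 2-fold difference was left without probe sets shared between transcripts. Hspa5 (BiP), the main HSP70 of the endoplasmic reticulum, gave 3262 and 4832 (log2 0.59), with its other probe sets at 0.45 and -0.058. Hsp90b1 (GRP94), its HSP90, gave 747 and 1248 (log2 0.77), and the second probe set gave 488 and 770 (log2 0.68).

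The J-domain proteins that serve BiP ranged from 0.21 to 0.67. Dnajb11 (ERdj3) gave 174 and 272 (log2 0.67). Dnajb9 (ERdj4) gave 1187 and 1351 (log2 0.21). Dnajc3 (p58IPK) gave 371 and 445 (log2 0.28), with its 4 measured probe sets between -0.13 and 0.28. Sdf2l1, which binds Dnajb11, gave 88.0 and 89.6 (log2 0.050). Dnajb11 and its own partner thus differed, although each rests on 1 probe set.

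Disulfide isomerases and lectin chaperones, which fold glycoproteins, ranged from -0.099 to 0.51. Pdia6 gave 729 and 1018 (log2 0.51), Pdia3 gave 548 and 613 (log2 0.18) and Pdia4 gave 47.9 and 44.0 (log2 -0.099). Calreticulin (Calr) gave 3024 and 3622 (log2 0.28), and its 3 probe sets lay between 0.19 and 0.28. Calnexin (Canx) gave 3220 and 3803 (log2 0.26), and its 3 probe sets lay between 0.26 and 0.34. The lectin pair had the closest agreement between probe sets of the genes with 3 or more measured on both arrays, at a size well under 2-fold.

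Creld2 and Manf, small proteins that are induced by stress of this compartment, differed from each other. Creld2 gave 265 and 423 (log2 0.70), whereas Manf gave 891 and 875 (log2 -0.0017). The degradation components differed likewise. Sel1l, the scaffold of the ligase that removes misfolded proteins, gave 148 and 239 (log2 0.71), with other probe sets at 0.36 and -0.21. Herpud1, a stress-induced partner of the same complex, gave 446 and 381 (log2 -0.20) and on its second probe set 147 and 158 (log2 0.13). Over this compartment, 13 of 16 genes were above 0, the median was 0.28, and 1 was at least 2-fold higher.

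The endoplasmic reticulum stress element (ERSE, the letters CCAAT and CCACG with 9 bases between them) is the classic promoter site of this compartment's chaperones. It was searched on both strands and found in 39 of 32851 windows (0.119%). Of the 33 genes with a window, 7 held it, all of them endoplasmic reticulum genes: Calr, Canx, Creld2, Dnajc3, Hsp90b1, Hspa5 and Pdia6. They are printed because, on the brightest probe sets, all 7 lay on the same side of 0, from 0.26 to 0.77, at a median of 0.51. The other 7 endoplasmic reticulum genes with a window ranged from -0.20 to 0.71, at a median of 0.18, with 5 above 0. With the mean of all probe sets, the 7 with ERSE were Calr 0.23, Canx 0.29, Creld2 0.70, Dnajc3 -0.0076, Hsp90b1 0.72, Hspa5 0.33 and Pdia6 0.11. The other 7 were then Dnajb9 0.21, Dnajb11 0.67, Sdf2l1 0.050, Pdia3 0.43, Pdia4 -0.19, Herpud1 -0.0365 and Sel1l 0.33. The size of the gap between the groups thus depended on the probe set rule. Both groups are small, no test was made between them, and a match describes letters, not binding. Capitals mark the match, each stretch lies before the start of its gene, and sequences are from RefSeq on GRCm38.p6, 5′ to 3′ on the strand of the gene. In order they lie at chr2:34771990-34772049 (plus), chr10:86705527-86705661 (minus), chr15:88819501-88819560 (plus), chr12:17266469-17266528 (plus), chr14:118937807-118937866 (plus), chr8:84847052-84847111 (minus) and chr11:50325779-50325838 (minus).
Hspa5: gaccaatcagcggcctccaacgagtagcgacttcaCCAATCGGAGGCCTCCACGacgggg
Hsp90b1: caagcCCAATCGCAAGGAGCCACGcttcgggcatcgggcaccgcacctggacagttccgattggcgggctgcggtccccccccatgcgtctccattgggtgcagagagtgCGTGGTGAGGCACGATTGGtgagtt
Creld2: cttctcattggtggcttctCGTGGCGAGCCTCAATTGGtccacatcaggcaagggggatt
Pdia6: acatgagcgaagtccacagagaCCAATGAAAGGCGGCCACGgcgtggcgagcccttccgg
Dnajc3: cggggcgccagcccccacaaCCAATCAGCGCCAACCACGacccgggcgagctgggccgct
Calr: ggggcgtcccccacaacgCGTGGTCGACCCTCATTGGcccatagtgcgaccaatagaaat
Canx: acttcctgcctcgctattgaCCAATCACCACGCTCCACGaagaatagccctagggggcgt
Hsp90b1, with matches at -212 and -107, had the largest difference of the 7 in the main setting (log2 0.77), with Creld2 at 0.70. With quantile scaling Hspa5 was higher, at 0.73 against 0.71 for Hsp90b1. Whether the number of matches bears on the size was not tested.

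A second form, ERSE-II (ATTGG and CCACG with 1 base between them), was in 12 windows (0.0365%), among them those of Herpud1 and Dnajb11. These differed from each other, with Herpud1 at -0.20 and Dnajb11 at 0.67. The Herpud1 match lies at -52, and the stretch around it is at chr8:94386354-94386413 on the plus strand.
Herpud1: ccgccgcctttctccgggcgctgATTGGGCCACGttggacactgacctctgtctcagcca
The core of the UPR element (TGACGTGG, 0.676% of windows) and the amino acid response element (TGATGNAAT, 0.965%), both searched on both strands, were in none of the 33.

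The factors that sense and pass on stress had no common direction. Ddit3 (CHOP), a transcription factor of prolonged stress, was the only gene at least 2-fold lower. It gave 155 and 72.1 (log2 -1.09) on its brightest probe set and 75.4 and 60.7 (log2 -0.29) on the other, so the size depended on the probe set and the direction did not. Atf4, which acts upstream of Ddit3 when translation is held back by phosphorylated eIF2α, gave 1453 and 1151 (log2 -0.31), and its second probe set gave 522 and 413 (log2 -0.31). The sensor genes were above 0 on their brightest probe sets. Atf6 gave 32.0 and 59.9 (log2 0.93), just under 2-fold, with its other probe sets at 0.54 and 0.038. Ern1 (IRE1) gave 215 and 282 (log2 0.42), with 0.20 on a dimmer probe set, but the mean of all its probe sets, most of them under the floor, turned it to -0.047. Hsf2, a heat shock factor, gave 10.4 and 12.004, below the floor in wild type and just above it in TIF1γ Δ/Δ cells, which gives no fold.

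**Figure D2:**
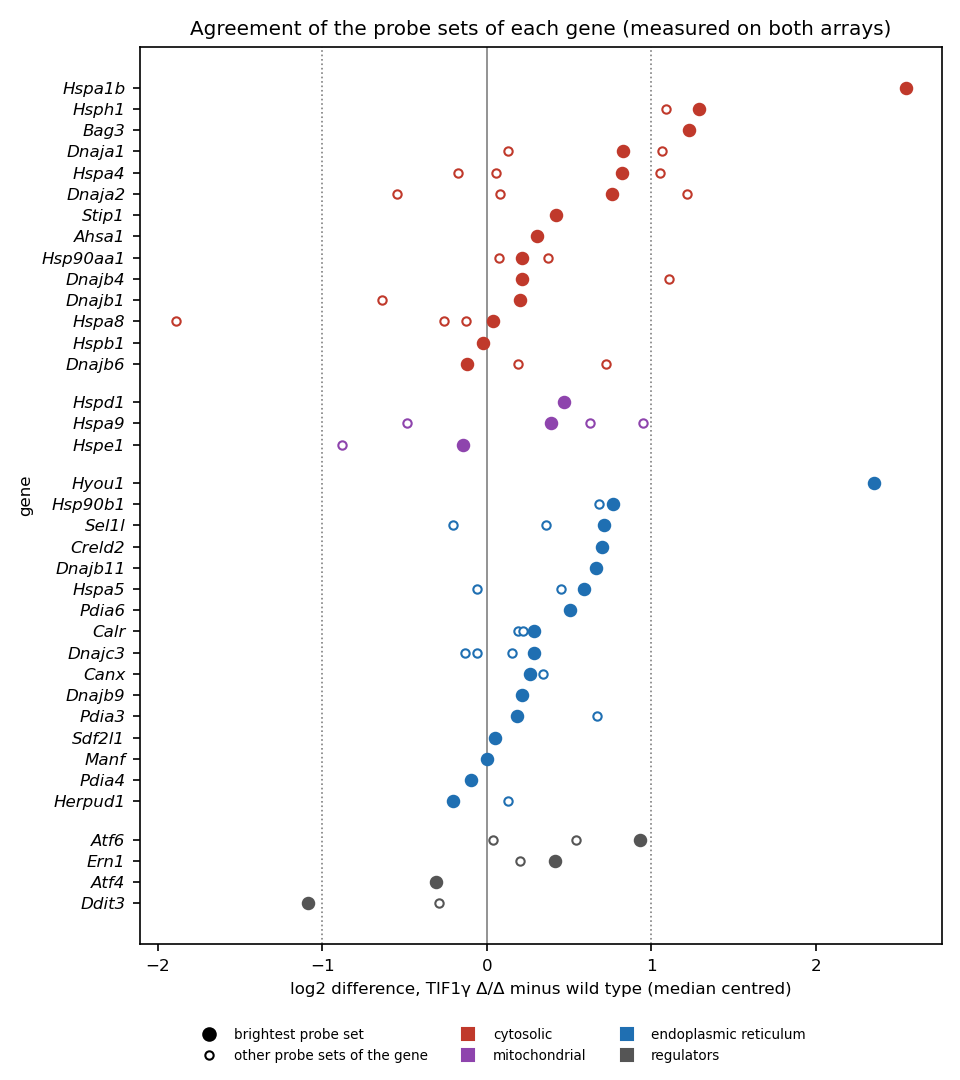
Log2 difference (TIF1γ Δ/Δ minus wild type, x axis) of every probe set measured on both arrays for each of 37 genes (y axis), with the brightest probe set filled, the others open, and dotted lines at 2-fold. The brightest probe sets of Hspa1b (2.54) and Hyou1 (2.35) stand alone in their rows, whereas those of Dnaja2, Hspa4 and Hspa8 spread over more than 1 unit.

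The probe sets of a gene were the only repeated measure in these data, and they are not replicates of a mouse. Of the 79 probe sets measured on both arrays, 57 (72.2%) were above 0, where 52.3% of all single-gene probe sets were. At least 2-fold higher were 9 (11.4%, against 2.84% of all), and 8 of these belonged to cytosolic genes. The cytosolic 2-fold probe sets came from Hspa1b, Hsph1, Bag3, Hspa4, Dnaja1, Dnaja2 and Dnajb4. Of 24 genes with at least 2 such probe sets, 11 had all above 0, 3 had all below 0 (Hspe1, Ddit3 and Atf4), and 10 were split. The other 13 genes rest on 1 probe set each, among them Hspa1b, Bag3 and Hyou1, so of the 4 genes at least 2-fold higher only Hsph1 had a second probe set measured on both arrays. With the second brightest probe set in place of the brightest, a choice made after the data were seen, the cytosolic median was 0.10 and the endoplasmic reticulum median 0.35. These medians cover only the 24 genes with at least 2 such probe sets, so they are not over the same genes as the main ones.

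Between compartments the medians were close: 0.36 for the cytosol, 0.39 for the mitochondrion and 0.28 for the endoplasmic reticulum, against 0.052 for the regulators. The cytosolic median minus that of the endoplasmic reticulum was 0.080. It was -0.057 with quantile and -0.053 with loess scaling, so its sign depended on the processing. With the second brightest probe set it was -0.25, but over fewer genes, because those with a single measured probe set drop out. At least 2-fold higher were 3 of 14 cytosolic genes and 1 of 16 of the endoplasmic reticulum, counts too small to compare. Hspa1b, Bag3 and Hyou1 each rest on 1 probe set measured on both arrays. Without probe sets shared between transcripts, Bag3 was the only gene at least 2-fold higher. Hsph1 was not put to that check, because both its probe sets are of the shared kind.

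**Figure D3:**
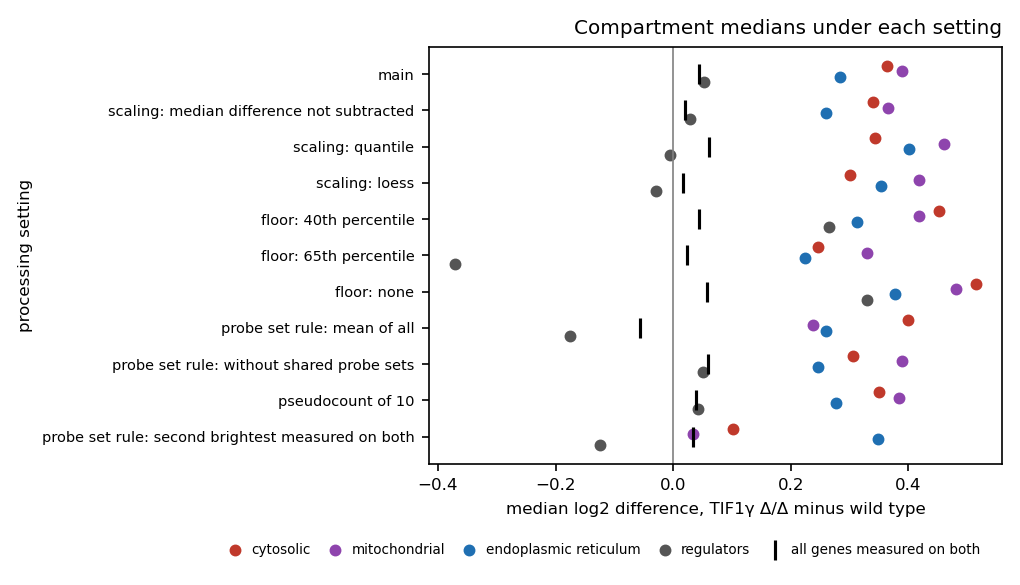
Median log2 difference (x axis) of each compartment, and of all genes measured on both arrays (black bars), under the main setting and 10 other settings (y axis). The cytosolic, mitochondrial and endoplasmic reticulum medians lie to the right of 0 in every row shown, and the regulators fall on both sides (from -0.37 to 0.33).

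The wider folding machinery gives the setting for these genes, by lists named for their function. HSP90 co-chaperones had the highest median of these lists. Of 11 measured, 10 were above 0, at a median of 0.57, and Fkbp5, an immunophilin of steroid receptor complexes, gave 132 and 276 (log2 1.09). None was at least 2-fold lower. The chaperonin TRiC and its feeder prefoldin, which fold actin and tubulin, did not share this. Their median was -0.064, with 5 of 14 above 0, and it turned to 0.061 with quantile and 0.038 with loess scaling. Pfdn5, a prefoldin subunit, gave 1735 and 657 (log2 -1.38, below 0 on 2 of 2 probe sets). Other cytosolic HSP70, HSP40 and small heat shock genes had a median of 0.041 (-0.034 without probe sets shared between transcripts), and none of 29 measured was 2-fold apart. The brightest, Dnajc8, gave 1799 and 1926 (log2 0.12).

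Other mitochondrial chaperones and proteases had a median of 0.17, with 10 of 16 above 0 and none 2-fold apart (-0.10 with the second brightest probe set), and Phb2 gave 2115 and 2331 (log2 0.16). Other folding enzymes of the endoplasmic reticulum had a median of 0.26, with 18 of 27 above 0. Prdx4, a peroxiredoxin that feeds disulfide formation there, gave 1695 and 543 (log2 -1.62), below 0 on 3 of 3 probe sets. Degradation genes of the compartment had a median of 0.19 with 17 of 23 above 0, which turned to -0.024 with the mean of all probe sets and -0.19 with the second brightest, and Derl1 gave 2945 and 2730.4 (log2 -0.085). Translocon and signal peptidase genes, which bring proteins into the endoplasmic reticulum, had a median of 0.0062 with 11 of 21 above 0 (-0.018 where the median difference was not subtracted), and Srp14 gave 4985 and 4142 (log2 -0.24). Neither of the last lists had a gene 2-fold apart.

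Further regulators of the unfolded protein response had a median of 0.20 with 14 of 20 above 0, which turned to -0.017 with the mean of all probe sets and -0.25 with the second brightest. Atf6b, a relative of Atf6, gave 23.6 and 50.6 (log2 1.12), the only 1 that was 2-fold apart. Genes known to respond to Atf4 had a median of 0.093, with 13 of 25 above 0, which turned to -0.13 with the mean of all probe sets and -0.31 with the second brightest. The mean of all probe sets also took the median of all genes to -0.057. Asns, which makes asparagine, gave 654 and 298 (log2 -1.11, below 0 on 2 of 2 probe sets), and Trib3, a pseudokinase induced through Atf4 and Ddit3, gave 92.8 and 39.4 (log2 -1.21, 2 of 2). Slc7a5, an amino acid transporter, went the other way at 70.7 and 210 (log2 1.59). Asns and Trib3 thus lay in the same direction as Atf4 and Ddit3, and Slc7a5 did not.

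**Figure D4:**
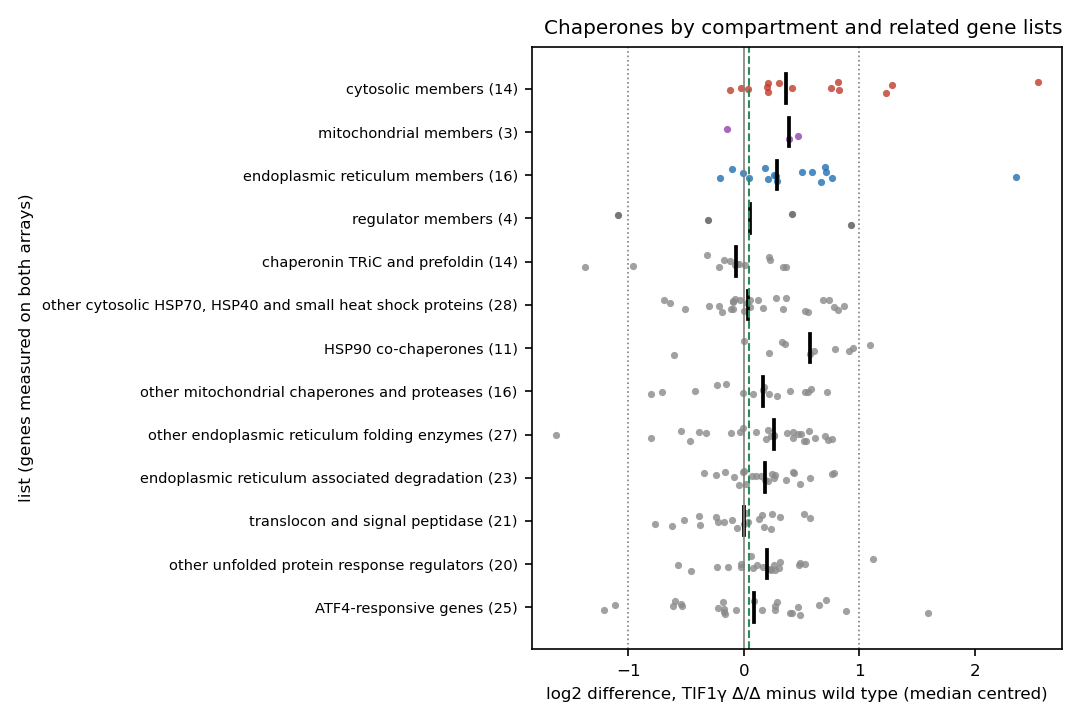
Log2 difference (x axis) of each gene measured on both arrays, by compartment (coloured) and by wider list (grey), with the number of genes in brackets, the list median as a black bar and the median of all genes as a dashed line. The HSP90 co-chaperones have the highest median (0.57). Below that of all genes (0.044) sit TRiC and prefoldin (-0.064), the translocon (0.0062) and, narrowly, other cytosolic HSP70, HSP40 and small heat shock genes (0.041). TRiC and prefoldin turned to 0.038 with loess scaling.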

How the data were processed

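RNA of sorted KLS cells was measured on 2 arrays, wild type and TIF1γ Δ/Δ, grouped by the genotype label. Per the submitters' processing notes, MAS5 (version not given in the sources used here) gave the deposited linear intensities. The mean after trimming 2% of probe sets at each end was 100 on each array, so the authors had scaled them. Control probe sets (64) were not used. Of 45101 probe sets, 34945 had 1 annotated gene, 932 several and 9160 none, and symbols were updated by Entrez identifier to RefSeq of GRCm38.p6. For a gene under the floor on 1 array, the floor replaced the signal, which gives a bound. MAS5 subtracts mismatch signals, which makes dim values noisy. Precision is limited by the number of arrays.

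All listed genes are named, with, per wider list, up to 2 genes each way at least 2-fold apart or else the brightest, Trim33, Kit, and the brightest 2 of each marker list in wild type. Genes and lists were chosen with earlier results of these data known. Single probe sets and genes outside these rules were named after their values were seen. A planned grouping by protein endings was not run. The procedure was tested on simulated data. Python 3.11.15, numpy 2.4.6, pandas 2.3.3, statsmodels 0.14.6 and matplotlib 3.10.9 were used.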

Additional observations from a re-analysis of the deposited data

How the results depend on the processing

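No paired analysis was possible because each group held 1 array, and no replicate could be left out. Of 13 other settings, 12 were planned and 1, the second brightest probe set, was chosen after the data were seen. That last setting holds only genes with at least 2 probe sets measured on both arrays, so its medians and counts are over fewer genes. The medians of the cytosolic, mitochondrial and endoplasmic reticulum genes stayed above 0 under the 9 planned settings that apply to them, at 0.25 to 0.52, 0.24 to 0.48 and 0.22 to 0.40. The mitochondrial median was 0.034 with the second brightest probe set, which left only Hspa9 (0.95) and Hspe1 (-0.88). The regulators spanned -0.37 to 0.33. Among single genes, the mean of all probe sets also turned Hspa8 to -0.56 and Dnajb6 to 0.13, and Dnaja2 was at -0.54 without shared probe sets. Of the listed genes, 4 were at least 2-fold higher and 1 lower. The counts were 1 and 2 without probe sets shared between transcripts (Bag3 higher, Hspa8 and Ddit3 lower). Hsph1, Hspa5, Hsp90b1, Calr and Hspb1 have only shared probe sets and thus no value under that setting. The counts were 2 and 0 at 3-fold, 2 and 0 with the second brightest probe set, and 13 higher at 1.5-fold. No gene was lower without a floor, with the mean of all probe sets or with a pseudocount of 10, each giving 0. Over all genes, 297 were higher and 705 lower. The counts were 170 and 412 when the floor was raised to percentile 65, 2025 and 2784 without a floor, 187 and 440 with the pseudocount, 1579 and 1791 at 1.5-fold, 26 and 266 at 3-fold, and 143 and 208 with the second brightest probe set. With the mean of all probe sets 123 were higher. Dim signal limits Hspa1a, Hspa1b, Hsf2, Bag3 and Hspb1, which lie near the floor on the wild type array.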

Other observations

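Outside the listed genes, 30 genes held an ERSE in a promoter window, a choice made from sequence alone. Of these, 13 had a probe set and 5 were measured on both arrays, of which 4 were above 0, at a median of 0.21. Among all genes with a window, 4560 of 8475 measured on both arrays were above 0, and 5 genes are too few to compare with that. Alg12 was above the floor on wild type only (16.5 and 10.9) and was lower on TIF1γ Δ/Δ. With it, the median over the 6 measured was 0.15. Syvn1, the ubiquitin ligase that works with Sel1l, gave 101 and 133 (log2 0.43). Pan2, a deadenylase subunit, gave 68.7 and 86.7 (log2 0.36). Derl3, a degradation component abundant in secretory cells, gave 47.8 and 54.5 (log2 0.21). Adcy3 gave 36.8 and 38.2 (log2 0.079), and Ero1b, an oxidase for disulfide formation, gave 144 and 141 (log2 -0.010). None reached 2-fold.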
